A study of Mus musculus with 8 samples.

Results

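The nuclear receptor family was followed at the RNA level in mouse embryonic stem cells (ESCs). The 46 members are the genes of the deposited expression tables whose symbols belong to a fixed list of receptors, out of 38991 genes, and the rule that picks them uses no measured value. The list itself was chosen with earlier results of these data known. Nuclear receptors are transcription factors with a ligand-binding domain and, in nearly all cases, a zinc-finger DNA-binding domain that reads variants of the hexamer AGGTCA. Some are switched by steroids, retinoids, thyroid hormone, oxysterols or fatty acids, whereas orphan receptors such as Esrrb have no established natural ligand. In naive ESCs a few of them belong to the pluripotency network, and retinoic acid receptors are best known there for the exit from pluripotency.

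The cells were RGd2 ESCs, a single line of strain 129 in which a short-lived GFP reports on Rex1 (Zfp42). They were grown without serum in N2B27 on gelatin, expanded for 6 passages in 2i, and then carried for 5 passages, to passage 11, in 1 of 4 media with replating every 3 days at 15000 cells per square centimetre. The media combined the cytokine LIF, the GSK3 inhibitor CH at 3 μM and the MEK inhibitor PD at 1 μM: 2i+LIF held all of them, 2i held CH and PD, LIF+PD lacked CH, and CH+LIF lacked PD. RNA-seq covered 2 cultures of each medium, 8 in all. The records name the cultures of a medium as separate samples but do not say how they were separated, so the p-values measure the spread between these cultures, which may be technical.

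Values are FPKM, which count fragments per kilobase of a transcript and are scaled by library size, so levels can be set side by side between genes. A member was tested if its FPKM was at least 1 in at least 2 cultures, which 21 of the 46 members and 12927 of all genes reached. Tests used limma on log2(FPKM + 1), and a gene was called at a Benjamini-Hochberg adjusted p below 0.05 over all 12927 genes. Log2 differences are on that scale, which understates changes of weakly expressed genes. In bulk RNA, fewer cells that express a gene and less RNA per cell cannot be told apart.

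The labels were checked on pathway readouts before the receptors were compared. Socs3, a LIF target, had a mean FPKM of 1.94 in 2i against 71.5 in 2i+LIF, Axin2, a Wnt target, had 2.16 in LIF+PD against 60.4, and Spry4, a target of the MEK pathway, had 39.1 in CH+LIF against 1.62. The summed FPKM of 10 ESC markers lay between 4673 and 6165 in every culture. Pou5f1 and Dppa5a gave most of this sum, and single markers moved in both directions. Mean FPKM in 2i+LIF, 2i, LIF+PD and CH+LIF was 78.1, 271, 261 and 346 for Utf1 and 200, 49.1, 110 and 197 for Klf4. Against 2i+LIF, 1 marker was called higher and 3 lower in 2i, 3 and 2 in LIF+PD, and 1 and 3 in CH+LIF. Of all tested genes 18.6%, 25.2% and 25.4% were called. The summed FPKM of 8 primitive endoderm markers was 1.95 to 2.50 in 2i+LIF, 2.17 to 2.33 in 2i, 3.78 to 5.32 in LIF+PD and 1.89 to 2.94 in CH+LIF. Cubn, Gata6, Pdgfra and Sox17 were below 0.5 in all 8 cultures, and of the 2 markers tested, Gata4 and Dab2, Dab2 was called higher in LIF+PD than in 2i+LIF. Depth, estimated from the step of low values, was 0.499 of that of the first 2i+LIF library in the first 2i library and between 0.903 and 1.18 of it in the other six.

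Most of the RNA of the family came from a few members. Esrrb, an orphan receptor of the naive pluripotency network, made up between 25.8% and 37.7% of the summed FPKM of the 46 members, which ranged from 578 to 733. The 4 members with the highest mean were Esrrb at 203, the oxysterol receptor Nr1h2 at 105, the atypical receptor Nr0b1 at 59.5 and the retinoic acid receptor Rarg at 49.0. Of the tested members 11 had a mean of at least 10, and 9 of the 21 were called in at least 1 of the 6 comparisons between media.

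**Figure D1:**
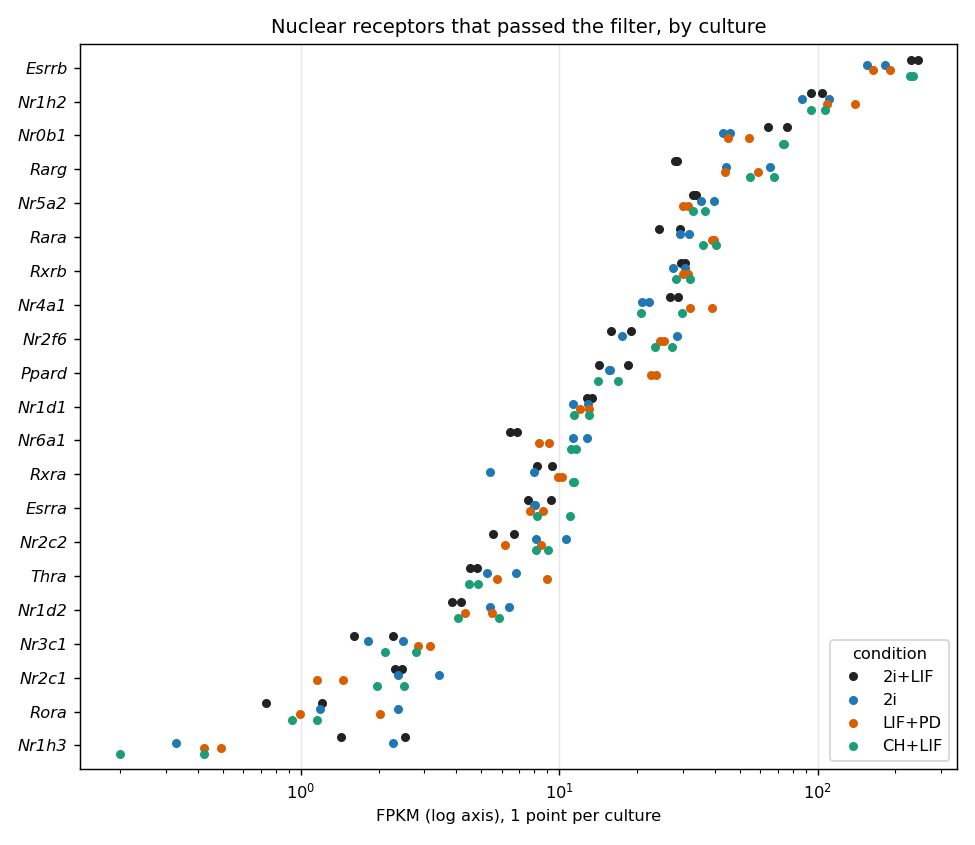
FPKM (log axis) of the 21 nuclear receptors that passed the filter, 1 point per culture, coloured by medium and ordered by mean. Esrrb lay between 155 and 243 in all 8 cultures, and Rxrb between 27.6 and 31.9.

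Esrrb and Nr0b1 stood lower wherever CH or LIF was left out. Esrrb lies on chromosome 12 (86361117 to 86521628, plus strand, GRCm38), and Nr0b1 on the X chromosome (86191764 to 86195947, plus strand). Nr0b1, also called Dax1, lacks the usual DNA-binding domain and is known as a partner of other receptors. The stretches before their starts, and before that of Rarg, are shown because these 3 members are among the 4 most abundant of the family and carried calls. They are RefSeq promoter windows of GRCm38.p6, the 250 bases before the start, 5′ to 3′ on the strand of the gene, with capitals for AGGTCA on either strand and for TTCNNNGAA, the letters of a STAT site:
Esrrb, chr12:86360867-86361116, plus strand: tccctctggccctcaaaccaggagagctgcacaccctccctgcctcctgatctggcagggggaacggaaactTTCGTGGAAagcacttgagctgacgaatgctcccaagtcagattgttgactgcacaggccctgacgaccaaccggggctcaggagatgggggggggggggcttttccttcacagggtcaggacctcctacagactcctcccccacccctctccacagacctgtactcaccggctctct
Nr0b1, chrX:86191525-86191774, plus strand: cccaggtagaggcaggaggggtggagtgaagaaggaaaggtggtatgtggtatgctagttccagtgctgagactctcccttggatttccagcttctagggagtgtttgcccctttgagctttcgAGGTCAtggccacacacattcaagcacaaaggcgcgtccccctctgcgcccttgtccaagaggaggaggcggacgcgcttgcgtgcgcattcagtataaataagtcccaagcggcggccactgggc
Rarg, chr15:102257523-102257772, minus strand: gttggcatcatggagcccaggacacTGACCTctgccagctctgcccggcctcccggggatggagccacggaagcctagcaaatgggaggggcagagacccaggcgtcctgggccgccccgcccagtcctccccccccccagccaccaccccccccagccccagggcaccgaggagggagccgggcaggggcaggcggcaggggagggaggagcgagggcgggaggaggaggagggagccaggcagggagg

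The Nr0b1 window holds AGGTCA between 120 and 126 bases before the start. In the Rarg window the hexamer lies on the opposite strand, as TGACCT, between 219 and 225 bases before it, and the Esrrb window holds 1 match to TTCNNNGAA between 169 and 178 bases before it. Esrrb and Rarg have a second window each, 60527 and 11017 bases from the deposited start, and the FPKM values do not tell which start was used. For 42 of the 46 members 63 windows were found. AGGTCA occurred in 17.46% of them and in 14.02% of all 32851 windows searched. TTCNNNGAA occurred in 5 member windows (7.937%) and in 7.02% of all, and CTTTGAT, the letters of a TCF/LEF site, in 1 (1.587%) and in 3.205% of all. The longer form TCAAGGTCA, which holds AGGTCA and is read by Esrrb and Nr5a2, was in 0 member windows and in 0.3866% of all. A match describes letters and is not a measured binding site.

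Esrrb had an FPKM of 243 and 229 in the cultures in 2i+LIF, 182 and 155 in 2i, 189.7 and 164 in LIF+PD, and 229 and 235 in CH+LIF. The 4 cultures that held both CH and LIF were above the 4 that lacked either. Against 2i+LIF the mean fell by 28.7% in 2i (log2 difference -0.49 ± 0.11, SE, n = 2 cultures a medium; limma, adjusted p = 0.0219) and fell by 25.2% in LIF+PD (-0.42 ± 0.11; limma, adjusted p = 0.0297). In CH+LIF the log2 difference was -0.03, with a 95% interval from -0.28 to 0.23 (limma, adjusted p = 0.877). CH+LIF was higher than 2i by 0.46 (limma, adjusted p = 0.0229) and higher than LIF+PD by 0.39 (limma, adjusted p = 0.0323). Each of these calls was lost when certain single libraries were left out. The call for 2i was lost without replicate 1 (adjusted p = 0.11) or 2 (0.0727) of 2i+LIF or replicate 2 of 2i (0.09), and the range over 17 other settings was 0.0143 to 0.11. The call for LIF+PD was lost without replicate 1 (0.137) or 2 (0.0808) of 2i+LIF or replicate 2 of LIF+PD (0.152), also with no filter (0.0528), equal sums (0.0516) or no mean-variance trend (0.0525), in a range of 0.0194 to 0.152. Of CH+LIF against 2i, the call was lost without replicate 2 of 2i (0.0901) or replicate 1 (0.0826) or 2 (0.0921) of CH+LIF, in a range of 0.00385 to 0.0921. Of CH+LIF against LIF+PD, it was lost without replicate 1 (0.102) or 2 (0.116) of CH+LIF or replicate 2 of LIF+PD (0.168), with no filter (0.0566) and with no trend (0.0571), in a range of 0.00826 to 0.168.

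Nr0b1 had an FPKM of 76.3 and 64.3 in 2i+LIF, 45.7 and 43.1 in 2i, 54.0 and 44.9 in LIF+PD, and 73.5 and 74.2 in CH+LIF. Its cultures split by medium exactly as those of Esrrb did, with no overlap between the 4 that held both CH and LIF and the others. The mean fell by 36.8% in 2i (log2 difference -0.65 ± 0.12; limma, adjusted p = 0.0106) and fell by 29.6% in LIF+PD (-0.50 ± 0.12; limma, adjusted p = 0.0223) against 2i+LIF. In CH+LIF it differed from 2i+LIF by 0.08, with an interval from -0.20 to 0.35 (limma, adjusted p = 0.677). CH+LIF was higher than 2i by 0.72 (limma, adjusted p = 0.0062) and higher than LIF+PD by 0.57 (limma, adjusted p = 0.0109). The call against 2i held in all 17 other settings, with adjusted p from 0.00219 to 0.0356. That for 2i against 2i+LIF was lost without replicate 1 of 2i+LIF (0.0636) or replicate 2 of 2i (0.0521), in a range of 0.00729 to 0.0636, and that for LIF+PD against 2i+LIF without replicate 1 of 2i+LIF (0.12) or replicate 2 of LIF+PD (0.114), in a range of 0.0133 to 0.12. CH+LIF against LIF+PD was lost without replicate 1 (0.052) or 2 (0.0501) of CH+LIF or replicate 2 of LIF+PD (0.0619), in a range of 0.0048 to 0.0619. The deposited FPKM of Nr0b1 lay outside its own deposited bounds in 5 of 8 cultures.

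Nr5a2, the other orphan receptor that ESCs are known for, carried no call. This receptor, which can stand in for Oct4 in reprogramming, had an FPKM of 32.9 and 33.9 in 2i+LIF, 35.4 and 39.8 in 2i, 30.0 and 31.6 in LIF+PD, and 36.8 and 32.8 in CH+LIF. Its lowest values were those of LIF+PD. The log2 difference from 2i+LIF was 0.17 in 2i, -0.11 in LIF+PD and 0.06 in CH+LIF (95% intervals from -0.06 to 0.39, from -0.34 to 0.11 and from -0.17 to 0.28). Its largest difference was -0.28 between LIF+PD and 2i (limma, adjusted p = 0.0764).

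Nr6a1, the germ cell nuclear factor, known as a repressor of Oct4 during differentiation, was lowest in 2i+LIF. It lies on chromosome 2 (38723370 to 38927688, minus strand). Its FPKM was 6.87 and 6.46 in 2i+LIF, 11.3 and 12.8 in 2i, 8.36 and 9.15 in LIF+PD, and 11.7 and 11.1 in CH+LIF. Every culture outside 2i+LIF was above both cultures in it. The log2 difference from 2i+LIF was 0.77 ± 0.11 in 2i (limma, adjusted p = 0.00441), 0.35 ± 0.11 in LIF+PD (limma, adjusted p = 0.0604) and 0.69 ± 0.11 in CH+LIF (limma, adjusted p = 0.00577). The calls in 2i and CH+LIF held in all 17 other settings, with adjusted p from 0.00378 to 0.0351 and from 0.00466 to 0.0411. LIF+PD was lower than 2i by a log2 difference of -0.42 (limma, adjusted p = 0.0316), a call kept in 7 of the 17 settings, in a range of 0.0294 to 0.148. It was lost without any 1 of the 8 libraries: the values were 0.052 and 0.0518 without replicates 1 and 2 of 2i+LIF, 0.0501 and 0.128 of 2i, 0.148 and 0.0751 of LIF+PD, and 0.0512 and 0.0514 of CH+LIF. It was also lost with equal sums (0.114) and in a fit on the 4 cultures alone (0.0836).

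Nr4a1, an immediate-early receptor that growth factors induce, was highest in LIF+PD. It lies on chromosome 15 (101266846 to 101274792, plus strand). Its FPKM was 26.9 and 28.8 in 2i+LIF, 20.9 and 22.3 in 2i, 32.1 and 39.1 in LIF+PD, and 20.7 and 29.8 in CH+LIF. The cultures of 2i and LIF+PD did not overlap, while those of CH+LIF spread over the range of both 2i and 2i+LIF. LIF+PD exceeded 2i by 0.69 ± 0.17 (limma, adjusted p = 0.0263), and against 2i+LIF the difference was -0.35 in 2i (limma, adjusted p = 0.205) and 0.34 in LIF+PD (limma, adjusted p = 0.196). The call against 2i was lost without replicate 1 (0.106) or 2 (0.0675) of 2i or replicate 2 of LIF+PD (0.135), and with no filter (0.057), in a range of 0.00999 to 0.135.

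Nr2c1, one of the testicular receptors, was the only called member with a mean below 5. It lies on chromosome 10 (94148023 to 94197211, plus strand). Its FPKM was 2.46 and 2.32 in 2i+LIF, 2.38 and 3.43 in 2i, 1.16 and 1.46 in LIF+PD, and 1.97 and 2.50 in CH+LIF. Both LIF+PD cultures were below the other six. LIF+PD was lower than 2i by a log2 difference of -0.75 ± 0.19 (limma, adjusted p = 0.0253) and differed from 2i+LIF by -0.56 (limma, adjusted p = 0.067). The call was lost without replicate 2 of 2i (0.102), replicate 1 (0.123) or 2 (0.0664) of LIF+PD, with no filter (0.0533), equal sums (0.0552) or a fit on the 4 cultures (0.0628), in a range of 0.0186 to 0.123. Nr2f6, of the COUP-TF group, had 15.8 and 19.0 in 2i+LIF, 28.6 and 17.6 in 2i, 24.6 and 25.4 in LIF+PD, and 23.4 and 27.4 in CH+LIF, without a call, although CH+LIF against 2i+LIF was called in 4 and LIF+PD against 2i+LIF in 3 of the alternative settings. Nr2f6 overlaps the gene Ocel1 on the opposite strand over 5239 bases, and its FPKM was outside the deposited bounds in 3 cultures.

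**Figure D2:**
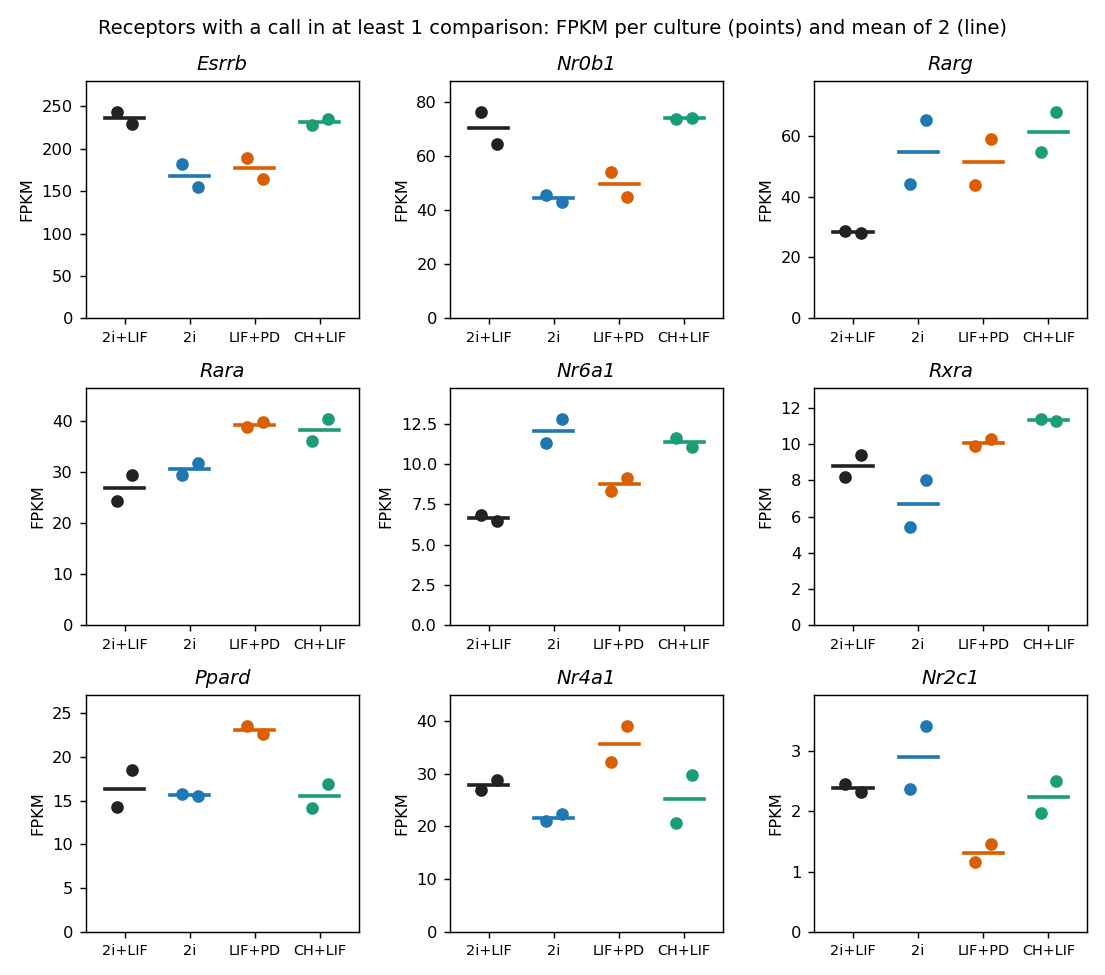
FPKM per culture (points) and the mean of 2 cultures (lines) of the 9 nuclear receptors called in at least 1 comparison, by medium, with axes that start at 0. Rarg and Nr6a1 were lowest in 2i+LIF, and Esrrb and Nr0b1 were lower in 2i and LIF+PD.

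Rarg and Rara, receptors for retinoic acid, had their lowest means in 2i+LIF. Rarg rose in all 3 media that lacked a component of 2i+LIF, Rara rose in the media with LIF and a single inhibitor, and Rarb, the third of this group, did not pass the filter. Rarg lies on chromosome 15 (102234938 to 102257517, minus strand) and Rara on chromosome 11 (98927818 to 98974942, plus strand). Rarg had an FPKM of 28.6 and 28.1 in 2i+LIF, 44.3 and 65.3 in 2i, 43.8 and 59.0 in LIF+PD, and 54.8 and 67.9 in CH+LIF. The 2i+LIF cultures were close together and below the other six, whose pairs were wide apart. Against 2i+LIF the log2 difference was 0.90 ± 0.21 in 2i (limma, adjusted p = 0.0273), 0.82 ± 0.21 in LIF+PD (limma, adjusted p = 0.0298) and 1.08 ± 0.21 in CH+LIF (limma, adjusted p = 0.0116). In CH+LIF the ratio of the means was 2.17, the widest ratio between media among tested members with a mean of at least 5. The 3 comparisons share the 2i+LIF cultures, and each call was lost without either of them: without replicate 1 and 2 the adjusted p was 0.103 and 0.113 for 2i, 0.108 and 0.112 for LIF+PD, and 0.0559 and 0.0585 for CH+LIF. The calls were also lost without replicate 2 of 2i (0.0975), of LIF+PD (0.144) and of CH+LIF (0.0611), and those for 2i and LIF+PD with no filter (0.0656 and 0.0675). The ranges over 17 settings were 0.00944 to 0.113, 0.01 to 0.144 and 0.00483 to 0.0611.

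Rara had an FPKM of 24.4 and 29.5 in 2i+LIF, 29.5 and 31.7 in 2i, 38.8 and 39.7 in LIF+PD, and 36.0 and 40.4 in CH+LIF. LIF+PD and CH+LIF were above all 4 cultures of the other media. Against 2i+LIF the log2 difference was 0.53 ± 0.11 in LIF+PD (limma, adjusted p = 0.0148), 0.49 ± 0.11 in CH+LIF (limma, adjusted p = 0.0201) and 0.18 in 2i, with an interval from -0.08 to 0.45 (limma, adjusted p = 0.306). The difference between LIF+PD and 2i was 0.35 (limma, adjusted p = 0.061) and that between CH+LIF and 2i was 0.31 (limma, adjusted p = 0.0875), so the media with LIF were not shown to differ from 2i. The call for LIF+PD was lost without replicate 1 of 2i+LIF (0.08) or replicate 1 (0.064) or 2 (0.0732) of LIF+PD, in a range of 0.00819 to 0.08. That for CH+LIF was lost without replicate 1 of 2i+LIF (0.102) or replicate 2 of CH+LIF (0.0954), in a range of 0.011 to 0.102.

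The summed markers of primed epiblast, neural cells and fibroblasts were lowest in 2i+LIF, where Rarg was also lowest, and those of mesoderm and trophectoderm were not. The summed FPKM of 5 primed epiblast markers (Fgf5, Otx2, Pou3f1, Dnmt3b and Lef1) was 41.1 to 44.0 in 2i+LIF, 93.6 to 120.4 in 2i, 101 to 109 in LIF+PD and 87.0 to 103 in CH+LIF. Of the 4 that were tested, 2 rose in each comparison with 2i+LIF, and Fgf5 stayed below 0.5 in every culture. The markers did not move together. Mean FPKM in 2i+LIF, 2i, LIF+PD and CH+LIF was 2.12, 14.8, 49.8 and 2.13 for Otx2 and 5.74, 36.8, 4.75 and 24.6 for Lef1. It was 0.487, 0.648, 3.55 and 1.36 for Pou3f1 and 34.2, 54.5, 46.4 and 66.9 for Dnmt3b. The sum of 5 neural markers was 2.43 to 2.66 in 2i+LIF, 8.55 to 12.5 in 2i, 15.95 to 16.7 in LIF+PD and 5.17 to 6.06 in CH+LIF. Pax6 led it in 2i and LIF+PD, and Map2 in 2i+LIF and CH+LIF. Sox1 was lower in 2i, with a mean of 0.030 against 0.594 in 2i+LIF. Of 3 tested neural markers, 1 was called higher in 2i, 1 in LIF+PD and 0 in CH+LIF, and 0 were called lower. Of all tested genes 18.6%, 25.2% and 25.4% were called. The sum of 6 fibroblast markers was 0.270 to 0.617 in 2i+LIF, 1.496 to 4.19 in 2i, 1.80 to 2.61 in LIF+PD and 3.05 to 3.995 in CH+LIF, with Col3a1, Dcn and Lum listed at 0 in every culture. Thy1, a surface protein counted in that list, had a mean FPKM of 0.138 in 2i+LIF and was called higher at 2.42 in 2i, 1.17 in LIF+PD and 2.90 in CH+LIF (limma, adjusted p = 0.0102, 0.0469 and 0.00504). The sum of 6 mesoderm markers was 6.86 to 7.92 in 2i+LIF, 12.6 to 21.8 in 2i, 3.41 to 3.68 in LIF+PD and 28.6 to 47.7 in CH+LIF. Of 3 tested, 1 was called higher and 1 lower in 2i, 0 and 1 in LIF+PD, and 2 and 0 in CH+LIF. In 2i the mean of T was 11.8 against 4.25 in 2i+LIF, and that of Kdr was 0.317 against 0.984. The sum of 7 trophectoderm markers was 36.0 to 38.5 in 2i+LIF, 51.6 to 52.4 in 2i, 65.6 to 77.6 in LIF+PD and 29.2 to 29.4 in CH+LIF. Tfap2c was its largest part, and single markers moved in both directions. In 2i+LIF, 2i, LIF+PD and CH+LIF the mean was 9.07, 11.4, 0.07 and 1.31 for Cdx2 and 1.28, 4.26, 16.4 and 0.23 for Gata3. Of 5 tested, 2 were called higher and 0 lower in 2i, 3 and 1 in LIF+PD, and 1 and 2 in CH+LIF. The part of these markers in the differences of the receptors was not tested.

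Retinoic acid receptors bind DNA as partners of the retinoid X receptors, of which Rxra and Rxrb were expressed and Rxrg was not tested. Rxrb had an FPKM of 30.6 and 29.7 in 2i+LIF, 30.7 and 27.6 in 2i, 31.5 and 30.1 in LIF+PD, and 28.2 and 31.9 in CH+LIF. All media overlapped, and the ratio between the highest and lowest mean, 1.06, was the smallest of the tested members. The 95% intervals of its differences from 2i+LIF ran from -0.28 to 0.18 in 2i, from -0.20 to 0.26 in LIF+PD and from -0.23 to 0.22 in CH+LIF. Rxra, on chromosome 2 (27676440 to 27762957, plus strand), had 8.19 and 9.41 in 2i+LIF, 5.42 and 8.001 in 2i, 9.88 and 10.3 in LIF+PD, and 11.4 and 11.3 in CH+LIF. Both 2i cultures were the lowest, and the first of them came from the library with the lowest estimated depth. CH+LIF exceeded 2i by 0.70 ± 0.17 (limma, adjusted p = 0.0247). The call was lost without replicate 1 of 2i (0.0764) or replicate 1 (0.101) or 2 (0.0885) of CH+LIF, with no filter (0.0541) or in a fit on the 4 cultures (0.0635), in a range of 0.00885 to 0.101.

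Among the receptors for lipids, Ppard changed and Nr1h2 did not pass the test. Ppard, a fatty acid receptor, lies on chromosome 17 (28232754 to 28301469, plus strand). Its FPKM was 14.2 and 18.5 in 2i+LIF, 15.8 and 15.6 in 2i, 23.6 and 22.7 in LIF+PD, and 14.2 and 16.9 in CH+LIF. Both LIF+PD cultures, the only ones without CH, were above the other six. LIF+PD exceeded 2i+LIF by 0.49 ± 0.14 (limma, adjusted p = 0.0431) and 2i by 0.53 (limma, adjusted p = 0.0311), and CH+LIF was lower than LIF+PD by a log2 difference of -0.55 (limma, adjusted p = 0.0248). Against 2i+LIF the call was kept in 8 of 17 settings, in a range of 0.0316 to 0.199. It was lost without replicate 1 of 2i+LIF (0.199), replicate 1 (0.058) or 2 (0.0575) of 2i, or replicate 1 (0.16) or 2 (0.121) of LIF+PD, and with no filter (0.0744), size factors (0.0522), no trend (0.056) or a fit on the 4 cultures (0.0612). Against 2i it was lost without replicate 1 (0.0996) or 2 (0.0948) of 2i, replicate 1 (0.126) or 2 (0.0993) of LIF+PD, and with no filter (0.0568), in a range of 0.022 to 0.126. Against CH+LIF it was lost without replicate 1 of CH+LIF (0.131), replicate 1 (0.106) or 2 (0.0816) of LIF+PD, and with equal sums (0.0715), in a range of 0.0173 to 0.131.

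Nr1h2, also called LXRβ, had an FPKM of 94.2 and 104 in 2i+LIF, 110.4 and 86.6 in 2i, 139 and 108 in LIF+PD, and 94.0 and 107 in CH+LIF. The first LIF+PD culture stood above the other seven. The largest of its differences from 2i+LIF was 0.31 in LIF+PD, with an interval from -0.06 to 0.69 (limma, adjusted p = 0.198). Its FPKM was outside the deposited bounds in all 8 cultures, so the level itself is uncertain. Its relative Nr1h3, LXRα, was the weakest tested member, with 2.52 and 1.43 in 2i+LIF, 2.27 and 0.33 in 2i, 0.49 and 0.42 in LIF+PD, and 0.20 and 0.42 in CH+LIF. The LIF+PD and CH+LIF cultures were below those in 2i+LIF, and the 2i cultures spanned nearly the whole range. The log2 difference from 2i+LIF was -1.01 in LIF+PD (limma, adjusted p = 0.114) and -1.16 in CH+LIF (limma, adjusted p = 0.0776), and neither was a call, although each was called in 3 alternative settings: the fit on the 4 cultures compared and without replicate 1 or replicate 2 of 2i. Nr1h3 reached 1 FPKM in 3 cultures, both in 2i+LIF and the first in 2i. It thus passed the filter only through media where it was high, and in the fit on 4 cultures through 2i+LIF alone. These calls therefore add no support.

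The other 7 tested members carried no call in any comparison. The clock repressor Nr1d1 lay between 11.3 and 13.4 FPKM, the oestrogen-related receptor Esrra between 7.56 and 10.98, Nr2c2 between 5.55 and 10.7, and the thyroid hormone receptor Thra between 4.47 and 8.93. The clock repressor Nr1d2 lay between 3.85 and 6.39, the glucocorticoid receptor Nr3c1 between 1.61 and 3.16, and the clock activator Rora between 0.73 and 2.38. Nr3c1 was the only steroid receptor that passed the filter. Nr1d1 and Thra overlap on opposite strands over 1075 bases, and Nr2c2 overlaps Mrps25 over 3533 bases. Esrra overlaps Trmt112, which had an FPKM of 82.3 to 122, on the opposite strand over 73 bases. No source used here says whether strand entered these FPKM values, so reads in these overlaps could not be assigned with certainty.

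The 25 members that did not pass were almost silent. The highest single FPKM among them was 1.22 for Nr2f2, followed by 0.44 for the mineralocorticoid receptor Nr3c2 and 0.41 for Nr2f1, and 24 stayed below 1 in every culture. Hnf4g, Nr2e1 and Esrrg were listed at 0 in all 8 cultures, 8 members at 0 in 5 to 7 cultures and 10 in 1 to 4, while Nr2f2, Nr4a2, Hnf4a and Nr3c2 were above 0 in all. The FPKM values do not give read counts, so no limit can be set on what a value of 0 allows. Both oestrogen receptors, both HNF4 receptors, all of the PXR, CAR and VDR group and the progesterone receptor Pgr were among the 25.

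Across the family, the share of members called was close to or below that of all genes. In 2i against 2i+LIF, 4 of 21 tested members were called, or 19%, beside 18.6% of all genes; 2 were higher and 2 lower, beside 9.77% and 8.86% of all genes. In LIF+PD against 2i+LIF, 5 were called, 23.8% beside 25.2%, of which 3 were higher and 2 lower, beside 14.8% and 10.4%. In CH+LIF against 2i+LIF, 3 were called, 14.3% beside 25.4%, of which 3 were higher and 0 lower, beside 12.2% and 13.3%. LIF+PD against 2i gave 4 calls, 19% beside 25.1%, of which 2 were higher and 2 lower, beside 14% and 11.1%. CH+LIF against 2i gave 3, 14.3% beside 23.9%, of which 3 were higher and 0 lower, beside 10.6% and 13.3%. CH+LIF against LIF+PD gave 3, 14.3% beside 30.4%, of which 2 were higher and 1 lower, beside 12.6% and 17.8%. At an unadjusted p below 0.05 in limma, CH+LIF against 2i+LIF had 4 members higher and 1 lower, and CH+LIF against 2i had 4 higher and 0 lower. The median log2 difference of the tested members from 2i+LIF was 0.10 in 2i, 0.23 in LIF+PD and 0.06 in CH+LIF, beside 0.04, 0.03 and 0.01 for all genes. The cultures of the groups did not overlap for 10, 16 and 7 members against 2i+LIF, beside 61%, 66.6% and 67% of all genes. They did not overlap for 8 in LIF+PD against 2i, 7 in CH+LIF against 2i and 12 in CH+LIF against LIF+PD, beside 62.7%, 63.3% and 68.4%.

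The counts moved when single libraries were left out. Without replicate 1 of 2i+LIF the calls against it fell to 1 in 2i, 0 in LIF+PD and 1 in CH+LIF, with 4, 5 and 3 members at an unadjusted p below 0.05 in limma. Without replicate 2 of 2i+LIF they fell to 2, 3 and 2. Without replicate 2 of LIF+PD the limma count was 0 against 2i+LIF, 0 against 2i and 0 for CH+LIF against LIF+PD, with 7, 6 and 5 at an unadjusted p below 0.05. Without replicate 1 of CH+LIF it was 0 against LIF+PD, with 4 at an unadjusted p below 0.05, and 1 against 2i, and without replicate 2 of CH+LIF it was 1 against 2i+LIF and 1 against 2i. In LIF+PD against 2i, only Nr2c1 kept its call without replicate 1 of 2i, and only Nr4a1 without replicate 1 of LIF+PD. Without replicate 2 of 2i, Nr2c1, Nr4a1, Nr6a1 and Ppard all lost their calls there. Nr1h3 and Rxra, which had none in the main fit, gained them in that setting. Against 2i+LIF, LIF+PD and CH+LIF gave 7 and 5 calls without replicate 1 of 2i, the shallowest library. They gave the same counts without replicate 2 of 2i.

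**Figure D3:**
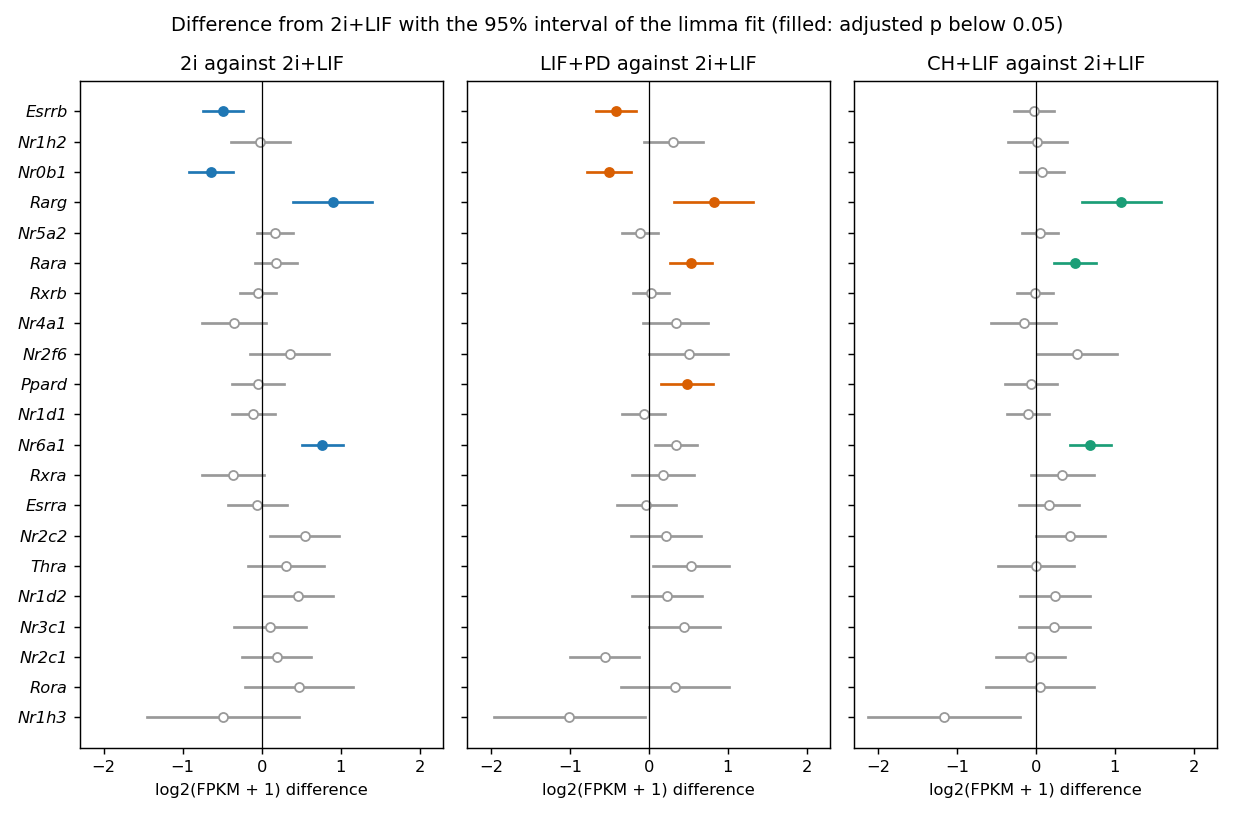
Difference of each medium from 2i+LIF in log2(FPKM + 1) for the 21 tested nuclear receptors, with the 95% interval of the limma fit, where filled points have an adjusted p below 0.05. There are 4 filled points for 2i, 5 for LIF+PD and 3 for CH+LIF, and Rarg is the only receptor filled in all 3 panels.

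Coregulators are the proteins through which receptors act on transcription. Of 24 tested coregulators, 1 was higher and 2 were lower in 2i than in 2i+LIF, 2 were higher and 2 lower in LIF+PD, and the only call in CH+LIF was higher, where 18.6%, 25.2% and 25.4% of all tested genes were called. In CH+LIF against LIF+PD, 2 were higher and 5 lower, where 30.4% of all tested genes were called. The median log2 difference of the list was 0.11, 0.19 and 0.14. Zbtb7a, a POZ-domain repressor, fell by 0.84 and the coactivator Ncoa6 fell by 0.68 on the log2 scale in 2i (limma, adjusted p = 0.00501 and 0.00401), and Ncoa7 rose by 0.57 in LIF+PD (limma, adjusted p = 0.0342).

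Genes that handle retinoids or are known retinoic acid targets moved in both directions. Of 11 tested of 20 listed, 3 were higher and 2 lower in 2i than in 2i+LIF, 5 higher and 3 lower in LIF+PD, and 3 higher and 2 lower in CH+LIF, beside the shares of all genes given above. The median log2 difference of the list was 0.30, 0.49 and 0.42. Crabp2, which carries retinoic acid to its receptors, had an FPKM of 2.23 and 1.13 in 2i+LIF, 9.67 and 18.7 in 2i, 50.7 and 47.7 in LIF+PD, and 2.76 and 3.10 in CH+LIF. It rose by 4.26 in LIF+PD (limma, adjusted p = 0.000232) and by 2.47 in 2i (limma, adjusted p = 0.00227). Cdx1, a target of Wnt signalling as well as of retinoic acid, had 24.1 and 16.5 in 2i+LIF, 15.4 and 8.83 in 2i, 0.12 and 0.13 in LIF+PD, and 36.0 and 34.2 in CH+LIF, and fell by 4.23 on the log2 scale in LIF+PD (limma, adjusted p = 0.00014). Crabp2 was thus highest, and Cdx1 near 0, where CH was left out. Aldh1a2, which makes retinoic acid and is named after its values were seen, fell in all 3 media, from a mean of 3.91 in 2i+LIF to 0.948 in 2i, 1.30 in LIF+PD and 2.08 in CH+LIF (limma, adjusted p = 0.00132, 0.00215 and 0.0154).

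**Figure D4:**
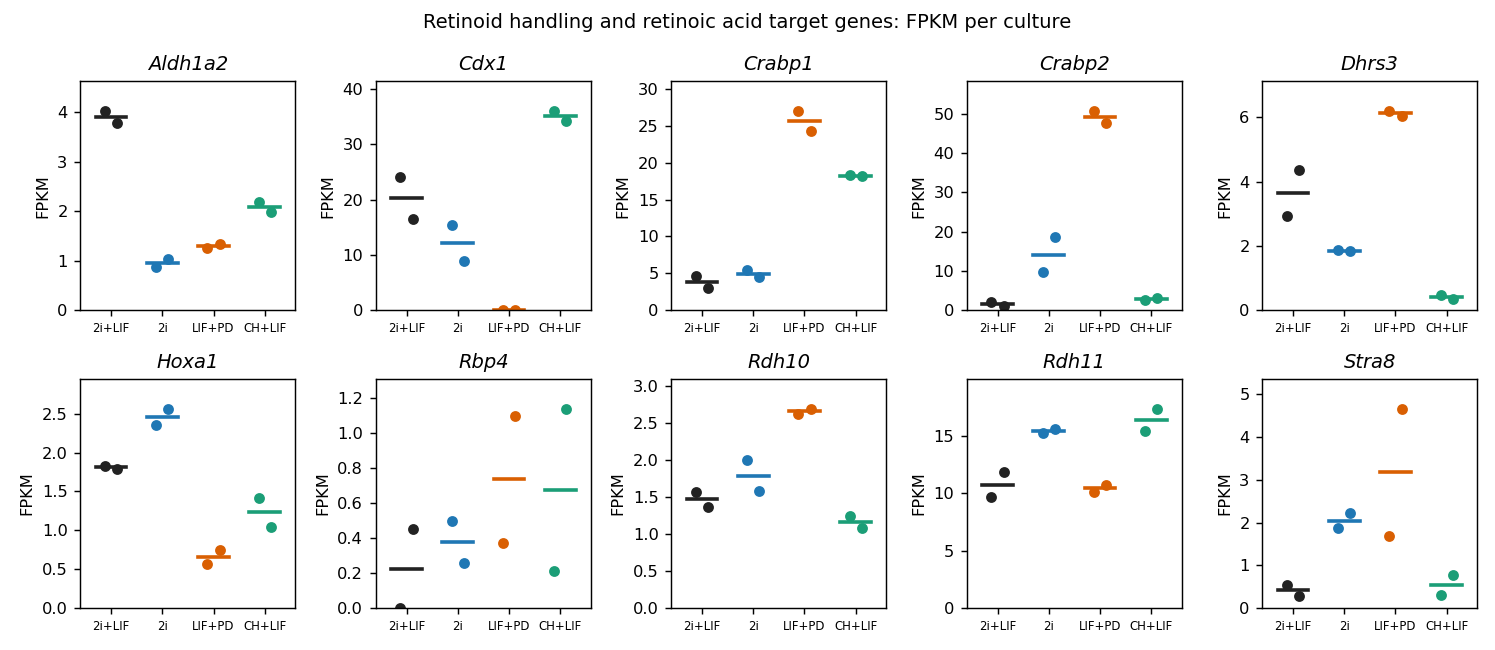
FPKM per culture (points) and mean of 2 cultures (lines) of 10 tested genes of retinoid handling and retinoic acid response, by medium, with axes that start at 0. Crabp2 reached 50.7 and 47.7 in LIF+PD, where Cdx1 had 0.12 and 0.13.

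Called targets of the PPAR group were mostly lower than in 2i+LIF, and those of the LXR and glucocorticoid receptors moved in both directions. Of all tested genes 18.6% were called in 2i, 25.2% in LIF+PD and 25.4% in CH+LIF. The shares called lower were 8.86%, 10.4% and 13.3%. Of 11 tested targets of the PPAR group, 1 was higher and 4 were lower in 2i, 1 higher and 4 lower in LIF+PD, and 1 higher and 5 lower in CH+LIF than in 2i+LIF, with list medians of -0.36, -0.35 and -0.34. The fatty acid binding protein gene Fabp3 fell by 2.24 on the log2 scale in CH+LIF (limma, adjusted p = 0.00101), Cpt1a, which brings fatty acids into mitochondria, fell by 1.34 in LIF+PD (limma, adjusted p = 0.000555), and the lipid droplet gene Plin2 fell by 1.26 in LIF+PD (limma, adjusted p = 0.00113). Of 8 tested LXR targets, the only call in 2i was higher, 1 was higher and 2 were lower in LIF+PD, and the only call in CH+LIF was lower. In LIF+PD, Apoe fell by 1.17 on the log2 scale (limma, adjusted p = 0.00124) while the cholesterol exporter Abca1 rose by 1.04 (limma, adjusted p = 0.0163), and in CH+LIF the phospholipid transfer gene Pltp fell by 0.62 (limma, adjusted p = 0.0101). Of 7 tested glucocorticoid targets, 2 were higher and 1 lower in 2i, 1 higher and 2 lower in LIF+PD, and 2 higher and 1 lower in CH+LIF. Dusp1, which is also induced by the MEK pathway, fell by 1.85 in LIF+PD (limma, adjusted p = 0.000382), Cebpd rose by 1.35 in 2i (limma, adjusted p = 0.00472), and Fkbp5 rose by 0.97 in CH+LIF (limma, adjusted p = 0.00311). Mean FPKM of Dusp1 was 33.6 in 2i+LIF and 8.56 in LIF+PD, which both hold PD, and 16.6 in CH+LIF, which does not. The cause of these differences was not tested.

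Nr1d1, Nr1d2 and Rora act on the genes of the circadian clock. Of 11 tested of 15 listed, 1 was higher and 1 lower in 2i, 3 higher and 1 lower in LIF+PD, and 2 higher and 2 lower in CH+LIF than in 2i+LIF, where 18.6%, 25.2% and 25.4% of all tested genes were called. The clock repressor Bhlhe40 fell by 1.73 on the log2 scale in 2i (limma, adjusted p = 0.00466), Per3 rose by 0.74 in LIF+PD (limma, adjusted p = 0.0372), and Arntl, the core activator, fell by 0.66 in CH+LIF (limma, adjusted p = 0.00717).

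Other factors of the naive network were set beside Esrrb and Nr0b1. Of 15 such genes, 8 were called in 2i against 2i+LIF, all lower, and 3 were higher and 5 lower in LIF+PD and 2 higher and 6 lower in CH+LIF, with list medians of -0.83, -0.23 and -0.07. Of all tested genes 18.6%, 25.2% and 25.4% were called in these comparisons. Dppa3 fell by 4.10 on the log2 scale in CH+LIF (limma, adjusted p = 0.000233), where Esrrb and Nr0b1 had no call. Gbx2 fell by 2.17 (limma, adjusted p = 0.000229) and Klf4 fell by 2.00 in 2i (limma, adjusted p = 0.00014), beside the decreases of 0.49 and 0.65 of Esrrb and Nr0b1 there. The split of Esrrb and Nr0b1 by medium was not particular to them. Klf4, Gbx2 and Tfcp2l1, the last named after its values were seen, split likewise, and the other genes of the list did not. The share of all tested genes that split this way was not counted, so no excess over it can be read from these genes. Mean FPKM in 2i+LIF, CH+LIF, 2i and LIF+PD was 200, 197, 49.1 and 110 for Klf4. It was 14.2, 23.9, 2.37 and 2.50 for Gbx2, and 119, 113, 58.2 and 53.0 for Tfcp2l1.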

How the data were processed

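RNA-seq values of 8 RGd2 cultures, 2 in each of 4 media, were analysed. The authors deposited FPKM per gene and culture with lower and upper bounds, also as FPKM. The methods name tophat2, mm10 and Ensembl 75 for the alignment, and the submitters' processing notes list TopHat2, Cufflinks and Cuffdiff without their roles. The libraries are called rRNA-depleted in the methods and polyA in the sample records, and the strand setting of the program that gave the FPKM is not given in the sources used here, while the read counts of the study were made with a reverse-strand setting.

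Rows with the same identifier were summed (22 repeats of 39013 rows). Every gene that reached 1 FPKM in 2 or more cultures was tested as log2(FPKM + 1) in a single limma 3.58.1 fit (R 4.3.3) with a mean-variance trend, which has 4 residual degrees of freedom, because read counts, on which the study's own test was run, were not used here. The 6 comparisons between media were adjusted by Benjamini-Hochberg over all tested genes. The fit was tested on simulated data. Tables were made with pandas 2.3.3 and numpy 2.4.6 in Python 3.11.15, and figures with matplotlib 3.10.9.

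Total counts are unknown. Genes below 0.5 FPKM in all cultures gave the relative depth, since 15.0% to 22.4% of their ratios gathered at a single value. Starts in the tables count from 0 and are given here from 1, and 34 of 46 members then had the positions of GENCODE M21.

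The members and lists were chosen with earlier results of these data known. Values in every culture are given for members called in at least 1 comparison or among the 10 highest means, and ranges for the others, except Nr1h3, whose values in every culture are given and which was chosen after its values were seen. From each other list the 3 genes with the largest called difference from 2i+LIF are named, except for 1 that is not reported here. Alternatives were pseudocounts of 0.1 and 5, no filter or one at 5 FPKM, equal sums, median-of-ratios size factors, no trend, a replicate block, a fit on the 4 cultures compared, and each library left out. Same-numbered cultures deviated together with correlations of -0.03 to 0.09, so the numbers were not taken as pairs. Tubb3, Bco1 and Ciart were not analysed here.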

Additional observations from a re-analysis of the deposited data

How the results depend on the processing

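Of 22 calls among the members, 3 held in all 17 settings, 19 were lost in at least 1 and 0 turned direction: Nr0b1 in CH+LIF against 2i and Nr6a1 in 2i and in CH+LIF against 2i+LIF held. In 16 other comparisons a member without a call gained one in some setting, among them Nr2f6 in LIF+PD and CH+LIF against 2i+LIF and Nr1h3 in LIF+PD and CH+LIF against 2i+LIF, each in the fit on the 4 cultures compared and without either replicate of 2i. Nr1h3 reached 1 FPKM only in 2i+LIF and 2i, so it passed the filter through media where it was high. Leaving out 1 library gave 1 to 4 calls for 2i, 0 to 7 for LIF+PD and 1 to 5 for CH+LIF against 2i+LIF, 0 to 4 for LIF+PD against 2i, 1 to 3 for CH+LIF against 2i and 0 to 3 for CH+LIF against LIF+PD. In the fit on the 4 cultures compared, CH+LIF against 2i+LIF had 5 calls and LIF+PD against 2i had 2. LIF+PD against 2i+LIF had 3 without the trend. LIF+PD against 2i had 1 with no filter and 2 with equal sums. With the replicate block the counts were 4, 5, 3, 6, 4 and 4 in the order of the comparisons above, and the samples share only a number. The block added Rara in LIF+PD and in CH+LIF against 2i, Rxra in LIF+PD against 2i and Nr4a1 in CH+LIF against LIF+PD. Equal sums shifted the median of all genes against 2i+LIF to 0.15 in LIF+PD and 0.18 in CH+LIF, from 0.03 and 0.01, and moved the share of calls that were higher from 58.6% to 74.9% and from 47.9% to 74.1%. For CH+LIF against 2i it moved from 44.5% to 64.0%. Apart from fewer cultures or more genes tested, the cause was not tested. With 2 cultures a medium, the depth behind each value unknown and 4 residual degrees of freedom in the fit, small differences could go undetected.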
